A study of Mus musculus with 4 samples.

Results

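Gene deserts are long stretches of chromosome without coding genes. The regions described here are the 7148 accessible regions of naive CD4 T cells that lay on chromosomes 1 to 19 and more than 200 kb from the body of every protein-coding gene. They were chosen by position alone, from the 64525 regions of a joint list on the mouse build mm10, of which 63301 lay on the autosomes. Each distance was taken from the nearer edge of the region, against the 20558 protein-coding genes that RefSeq places on the autosomes of GRCm38.p6, whose chromosome sequences are those of mm10. Desert regions thus made up 11.3% of the autosomal regions (95% exact binomial interval 11.0 to 11.5%).

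The study set open chromatin in Ddx55 knockout cells against wild-type cells. The assay was ATAC-seq: a transposase enters exposed DNA, cuts it and adds sequencing adapters. There were 2 libraries labelled DDX55 KO and 2 labelled WT, all of CD4+ naive T cells from spleen and pLN of Mus musculus; Ddx55 encodes a DEAD-box RNA helicase. The labels give no strain, age, sex, allele or promoter for the knockout and do not say whether the libraries came from separate animals. The list analysed here gives positions without a value per library, so the genotypes were not compared, depth is unknown, and each region may be open in either genotype or in both. In bulk chromatin, a region open in few cells cannot be told apart from a region weakly open in many. As a check of the label, all 11 markers of naive T cells examined had a region within 1 kb of a gene end (Cd3d, Cd3e, Cd3g, Cd4, Lck, Zap70, Tcf7, Lef1, Bcl11b, Ccr7 and Il7r). Of 8 markers of B cells, CD8 T cells, macrophages and natural killer cells, only Cd8b1 had such a region.

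Many deserts flank genes for transcription factors, and they can hold enhancers, short stretches where bound factors raise transcription of a gene far along the chromosome. Such an element is contacted by looping of the chromosome and is usually free of nucleosomes when in use, which is what a transposase detects. In mice, distal enhancers active in T cells or their precursors are known in the deserts beside Gata3, which encodes a factor for helper T cell fate, and Myc, which encodes a growth regulator. Position and openness alone do not show that a region is an enhancer, or of which gene.

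The genome letters of the regions themselves were not available for this work, but a few desert regions cover the annotated start of a long non-coding RNA (lncRNA), for which RefSeq promoters are at hand. Of 1023 such promoters, each reaching from 250 bases before to 50 bases after a start and lying over 200 kb from every coding gene, 13 were overlapped by a region. The 5 promoters below lie under regions of 524 to 1231 bp and were picked once their values were known: 3 are in the Satb1 desert, the T cell receptor alpha locus and the desert between Trib2 and Lpin1, which are described further on, and 2 are richer in G and C. Gm40899 (759 bp) and Gm35425 (605 bp) also had a region of 500 bp or more and are not printed. They are written 5′ to 3′ in the direction of the lncRNA, credited to RefSeq (GRCm38.p6). Capitals mark exact matches, on either strand, to the letters searched. These were AGGAAG for ETS factors, TGTGGT for RUNX factors, CTTTGA for the TCF and LEF factors, TGANTCA for AP-1 with N as any base, the CCAAT box by its own letters, GGGCGG for the so-called GC box of housekeeping promoters, AGATAA for factors of the GATA family, and TGACG for CREB and related factors.
Gm19585: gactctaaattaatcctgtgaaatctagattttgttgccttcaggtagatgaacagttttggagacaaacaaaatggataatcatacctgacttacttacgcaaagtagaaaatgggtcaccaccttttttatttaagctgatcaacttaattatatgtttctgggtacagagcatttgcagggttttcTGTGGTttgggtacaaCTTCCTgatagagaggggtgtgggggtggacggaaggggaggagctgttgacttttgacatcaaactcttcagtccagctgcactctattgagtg
Gm30214: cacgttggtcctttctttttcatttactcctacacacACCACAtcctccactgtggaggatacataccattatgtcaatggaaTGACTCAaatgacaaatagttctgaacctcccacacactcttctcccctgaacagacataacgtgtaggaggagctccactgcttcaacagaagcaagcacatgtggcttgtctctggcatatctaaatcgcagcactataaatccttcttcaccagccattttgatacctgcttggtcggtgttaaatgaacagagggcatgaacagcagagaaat
Gm36372: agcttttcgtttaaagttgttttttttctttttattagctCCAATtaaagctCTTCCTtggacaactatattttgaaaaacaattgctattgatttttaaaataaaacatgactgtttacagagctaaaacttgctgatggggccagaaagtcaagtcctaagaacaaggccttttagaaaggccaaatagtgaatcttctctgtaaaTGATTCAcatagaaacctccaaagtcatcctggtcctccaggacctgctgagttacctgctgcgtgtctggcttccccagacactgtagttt
Gm40948: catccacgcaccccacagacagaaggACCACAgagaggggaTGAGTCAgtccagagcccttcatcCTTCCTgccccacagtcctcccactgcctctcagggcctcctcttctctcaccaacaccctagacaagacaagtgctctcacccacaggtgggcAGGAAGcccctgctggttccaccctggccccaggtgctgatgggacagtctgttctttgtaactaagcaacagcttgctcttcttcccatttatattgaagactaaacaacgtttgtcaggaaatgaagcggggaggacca
Gm26901: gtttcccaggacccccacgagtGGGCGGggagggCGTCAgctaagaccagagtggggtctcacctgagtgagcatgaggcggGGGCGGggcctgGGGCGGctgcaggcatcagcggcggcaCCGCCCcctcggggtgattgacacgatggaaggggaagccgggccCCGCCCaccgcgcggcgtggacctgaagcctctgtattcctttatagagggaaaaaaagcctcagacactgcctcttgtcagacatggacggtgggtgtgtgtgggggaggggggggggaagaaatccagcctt

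The Gm19585 promoter (chr17:52149039-52149338) lay under a 707 bp region at chr17:52149080-52149786, 316 kb from Satb1, which encodes an organizer of chromatin in T cells. It held an ETS and a RUNX match, the letters bound by families with well known roles in T cells. The Gm30214 promoter (chr14:53039417-53039716) lay in the V segments of the T cell receptor alpha locus under a 524 bp region, with a RUNX and an AP-1 match. The Gm36372 promoter (chr12:16210309-16210608) lay under a 904 bp region between Trib2, which encodes a pseudokinase, and Lpin1, which encodes a lipid phosphatase. It was poor in G and C (37.7%) and held ETS, AP-1 and CCAAT matches. The Gm40948 promoter (chr13:52083558-52083857) lay under an 809 bp region between Gadd45g, a stress response gene, and Diras2, and held 2 ETS matches, a RUNX match and an AP-1 match. The Gm26901 promoter (chr1:7398047-7398346) differed from the other 4 in base composition, with 65.7% G and C, 18 CpG dinucleotides and 5 GC box matches. It lay under the widest of these regions, 1231 bp between Pcmtd1 and Sntg1.

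Over all 13 open desert promoters, 6 held the AP-1 letters (46.2%, 95% exact binomial interval 19.2 to 74.9%), against 104 of the 1010 desert lncRNA promoters without a region (10.3%) and 7.84% of all 31396 autosomal promoters of the table. RUNX letters were in 6 of the 13, against 18.8% of those without a region and 16.7% of all. ETS letters were in 8 of the 13, against 34.5% and 35.1%. The TCF and LEF letters were in 4 of the 13 (30.8%), against 20.8% and 15.9%, and the CREB letters in 3 (23.1%), against 10.8% and 21.0%. Other letters were less frequent in the open desert promoters than over all promoters. The CCAAT box was in 3 of the 13 (23.1%), against 41.2% of those without a region and 37.3% of all, and the GATA letters in 1 (7.69%), against 18.5% and 11.2%. The GC box was in 2 (15.4%), against 4.06% and 36.0%. Matches were counted over the whole promoter, and some lay outside the overlapping region. Among these were the RUNX matches of Gm34809 and the ETS match of Gm14250, which are not printed. With 13 promoters the intervals are wide, and a match describes letters, not a bound factor. No match overlapped another in the 5 promoters printed.

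Desert promoters were seldom open. The 13 of 1023 correspond to 1.27% (0.678 to 2.16%), against 14.5% of the 10288 promoters of other lncRNA genes and 47.9% of the 20085 promoters of coding genes. Regions covered 0.405% of desert base pairs, at 15.6 regions per Mb. How often a region overlaps any 300 desert bases was not computed. The 1.27% is thus not shown to differ from the share for desert sequence in general. Desert lncRNA promoters were also poorer in CpG dinucleotides, with a median of 2 in 300 bases, against 4 for other lncRNA genes and 14.0 for coding genes; the part of base composition in the low share was not tested.

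Desert regions were sparse, narrow and scattered. The sequence over 200 kb from every coding gene came to 458 Mb, or 19.1% of the 2402 Mb that the regions of the autosomes span. It held 15.6 regions per Mb (95% exact Poisson interval 15.2 to 16.0), against 28.9 per Mb (28.6 to 29.1) in the other autosomal sequence, a ratio of 0.540 (0.527 to 0.554). Regions covered 0.405% of desert base pairs, against 1.25% elsewhere. All intervals cover counting error only; neighbouring regions are not independent, there is no spread between libraries, and none of the differences described here was tested.

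The lower density was seen on each of the 19 autosomes. Deserts averaged 15.5 ± 2.05 regions per Mb, against 28.9 ± 2.68 in the other sequence (mean ± SD over 19 chromosomes). The ratio ran from 0.335 on chromosome 19, where 69 desert regions lay in 6.92 Mb, to 0.678 on chromosome 16, where 396 lay in 20.3 Mb. The gene-rich chromosome 11 had the highest density outside deserts (36.0 per Mb), yet its deserts held 13.6 per Mb.

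**Figure D1:**
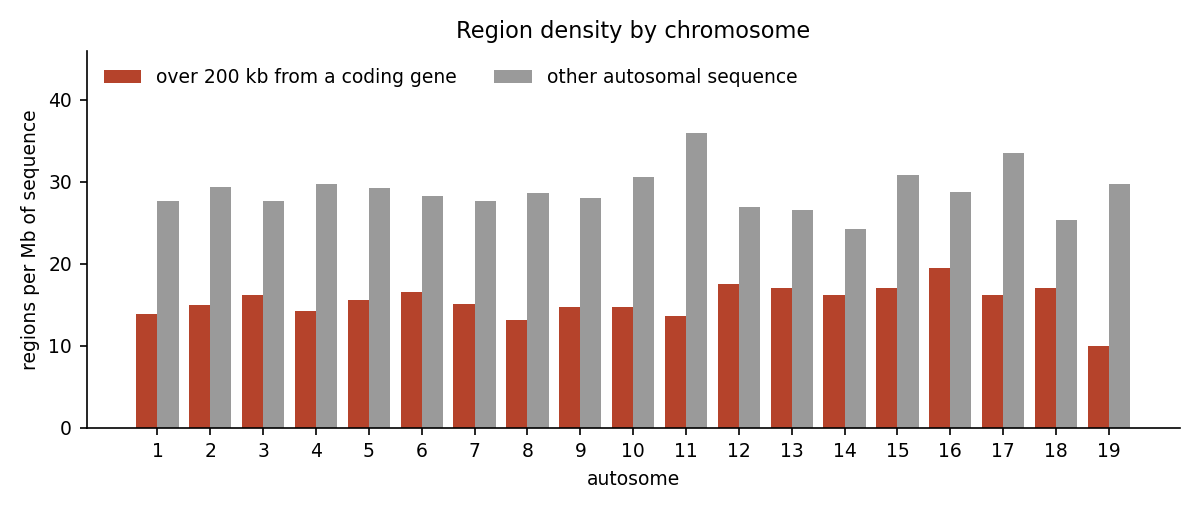
Accessible regions per Mb of sequence over 200 kb from a coding gene (red) and in the other sequence (grey) of each autosome; each bar is 1 value from the joint list, without replicates. The red bar is the shorter of the pair on all 19 chromosomes.

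Density was lower at each step away from genes up to about the edge of the deserts, and about level beyond it. It was 35.2 regions per Mb inside coding genes, 28.6 within 10 kb outside them, 23.6 at 10 to 50 kb, 18.5 at 50 to 100 kb and 16.5 at 100 to 200 kb. Within the deserts it was 15.5 at 200 to 500 kb (15.1 to 16.0), 15.2 at 500 to 1000 kb (14.6 to 15.9) and 16.7 beyond 1000 kb (15.7 to 17.7). Sequence more than a megabase from any coding gene thus held about as many regions per Mb as sequence at the desert edge.

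Width behaved otherwise, since wide regions grew scarcer with distance inside the deserts too. The median width of desert regions was 223 bp (95% order-statistic interval 221 to 225, quartiles 179 and 296, range 75 to 2576), against 309 bp (306 to 311) for other autosomal regions and 247 bp for those 50 to 200 kb from a gene. The desert median was below that of the other regions on 19 of 19 chromosomes, at 224 ± 6.34 bp against 310 ± 14.8 bp (mean ± SD). Regions of 500 bp or more, called wide below, numbered 368 in deserts, or 5.15% (4.65 to 5.69%), against 29.9% elsewhere and 13.4% at 50 to 200 kb. Their share was 6.75% at 200 to 500 kb (5.99 to 7.57%), 3.63% at 500 to 1000 kb (2.87 to 4.53%) and 2.19% beyond 1000 kb (1.41 to 3.24%). Width is not signal: it depends on how the authors' peaks were cut and joined, and the deposited list holds no height to set beside it.

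**Figure D2:**
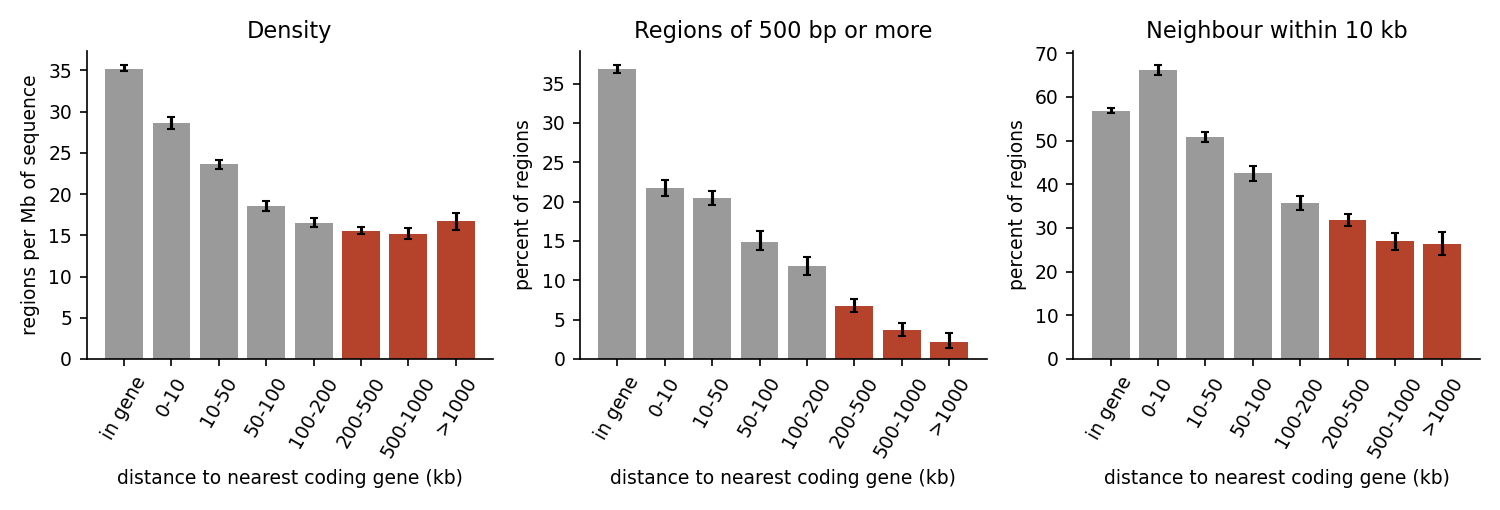
Regions per Mb of sequence, percent of regions of 500 bp or more, and percent with another region within 10 kb, by distance to the nearest coding gene in kb; deserts are red, bars are values of the joint list and lines are 95% exact intervals. The red bars are about level for density, at 15.2 to 16.7 per Mb, and step down for wide regions, to 2.19%.

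The threshold fell in a continuum. The first regions inside it were a 387 bp region 200018 bp from Tent5a and a 191 bp region 200022 bp from Slc39a11. Just outside it lay a 362 bp region 199855 bp from Cyria.

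Desert regions mostly stood alone. Another region lay within 10 kb for 2114 of them, or 29.6% (28.5 to 30.6%), against 55.0% of other autosomal regions and 39.2% of those at 50 to 200 kb. The median distance to the nearest other region was 20.1 kb in deserts and 8.58 kb elsewhere. Joined by gaps under 10 kb, 5059 desert regions (70.8%) formed no chain, 750 chains had 2 regions, and 163 had 3 or more. Between successive regions of the same desert the median gap was 37.7 kb (quartiles 14.7 and 79.1), and the longest was 594 kb, between Arpp21, a neuronal phosphoprotein gene, and Pdcd6ip.

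The deserts formed 728 continuous stretches with a median length of 345 kb. A region was found in 617 of them. The 111 without a region were short, up to 290 kb for the stretch between Gpr149 and Mme, the gene of a membrane peptidase; at that length 0 regions still allow up to 12.7 per Mb (upper exact bound). All 280 stretches of 500 kb or more held at least 2 regions, and together they held 5680, or 79.5% of the total. Over the 728 stretches, length and number of regions had a Pearson r of 0.930 and a Spearman rho of 0.897, a description only, since longer sequence gives more room for regions. Among the 280, density had a median of 15.4 per Mb with quartiles of 11.3 and 17.8, and 14 stretches exceeded 25 per Mb.

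Each of the 5 longest deserts has a gene known from the nervous system on at least a side, and they held narrow regions at about the average density. The stretch between the protocadherin genes Pcdh20 and Pcdh9 (4.14 Mb, chr14:88671397-92813699) held 66 regions, 15.9 per Mb, with 1 wide. That between Celf4, an RNA-binding protein gene, and Pik3c3, a lipid kinase gene (4.11 Mb), held 72 regions, 17.5 per Mb, with 2 wide. The stretch between Olfm4 and Pcdh17 (4.02 Mb) held 60 regions and no wide one. Those between Cntnap5b and Cdh20 and between Tenm3 and Aga held 13.9 and 12.3 regions per Mb over 3.88 and 3.59 Mb. Of these flanking genes, Cntnap5b, Cdh20 and Tenm3 encode neuronal adhesion molecules. Other crowded stretches lay between Pcdh7 and G6pd2 (61 regions), D3Ertd751e and Pcdh10 (59), Lrrc4c and Iftap (58), and Tenm2 and Mat2b (56), with 0, 0, 3 and 1 wide regions in that order. The regions farthest from any coding gene lay between Celf4 and Pik3c3: a 155 bp region was 2243 kb from Pik3c3, and regions of 222 and 167 bp were 2237 and 2205 kb from the same gene. A region of 248 bp was 2208 kb from Celf4, its nearest coding gene. The fifth of these, 213 bp wide, was 2188 kb from Pcdh20.

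**Figure D3:**
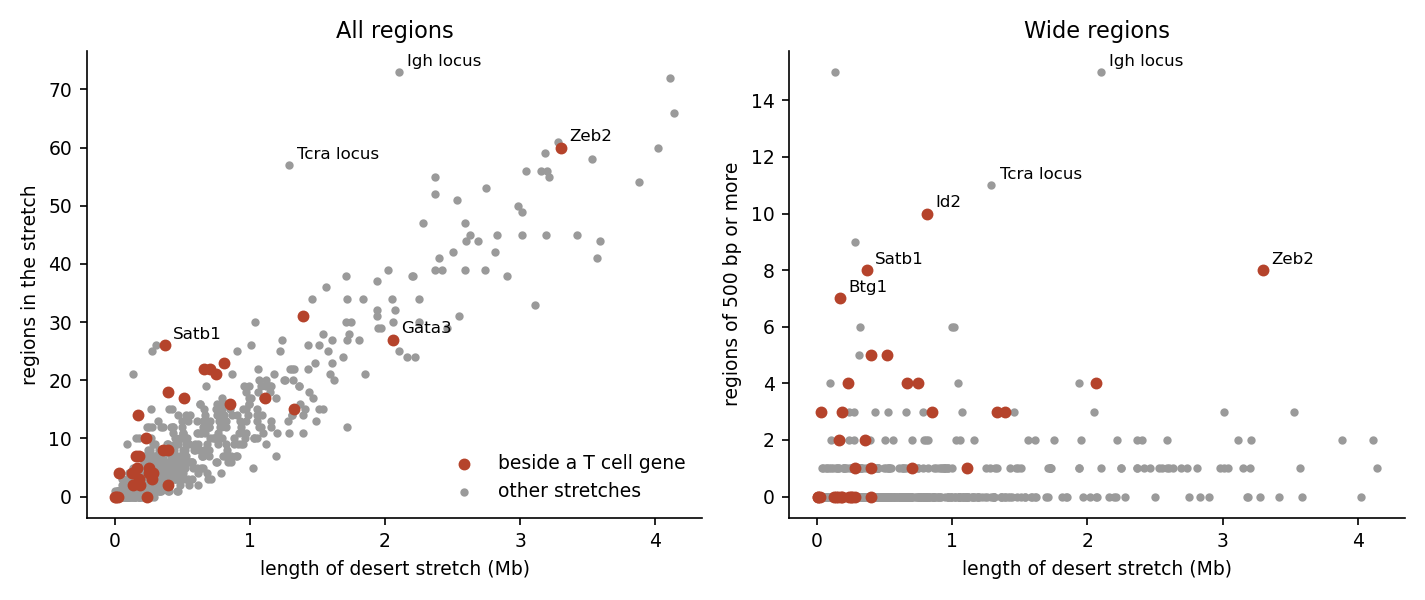
Number of regions (left) and of regions of 500 bp or more (right) in each of the 728 desert stretches against its length in Mb; red points are the 34 stretches beside a gene of the T cell list and grey points the others. The left cloud climbs with length; in the right panel the highest points, 15 at the Igh locus and at the start of chromosome 9, are stretches of 2.10 Mb or less.

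Stretches were then grouped by whether the nearest coding gene on either side was in a list of T cell, developmental or neuronal genes. The lists were written with earlier results of these data known, so the counts describe and do not test. Of the 126 autosomal T cell genes, 31 flanked a stretch, against 62 of 137 developmental and 120 of 168 neuronal genes. The T cell genes flanked 34 stretches of 18.3 Mb in all, or 3.99% of the desert sequence.

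Deserts beside genes of the T cell list held more regions and wider ones. Here T cell genes means the genes of that list. Stretches beside other genes that act in T cells, such as Pdcd1 and Rasgrp1, count as not beside a T cell gene. The 407 regions in deserts beside T cell genes came to 22.2 per Mb (20.1 to 24.5), against 15.3 per Mb (15 to 15.7) in deserts not beside a T cell gene. The density beside developmental genes was 13.7 per Mb (12.5 to 15) and beside neuronal genes 15.6 (15 to 16.2). Of the 34 T cell stretches, 22 were above the 15.6 per Mb of all deserts, against 290 of all 728. Wide regions made up 20.1% of regions beside T cell genes (82 regions, 16.4 to 24.4%), against 4.24% (3.77 to 4.75%) in deserts not beside them; the shares beside developmental and neuronal genes were 4.32% and 3.01%. Put per length, there were 4.48 wide regions per Mb beside T cell genes and 0.650 elsewhere in the deserts, so that 3.99% of the desert sequence held 22.3% of its wide regions. The median width was 263 bp (249 to 281) beside T cell genes, against 222 bp (219 to 224). A neighbour within 10 kb was present for 46.7% of regions beside T cell genes, against 29.6% over all deserts.

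The higher density lay within 500 kb of a coding gene of any kind, which need not be the T cell gene. In the Zeb2 stretch, for example, wide regions lay up to 3356 kb from Zeb2, at the end towards Acvr2a. At 200 to 500 kb from the nearest coding gene, T cell stretches held 26.9 regions per Mb (24.0 to 30.1), of which 24.3% were wide, against 15 per Mb and 5.30% in other deserts. Beyond 500 kb they held 14.7 per Mb (12 to 17.8), of which 7.84% were wide (8 regions, 3.45 to 14.9%), against 15.7 per Mb and 2.97%. Beyond 500 kb the intervals for density overlap.

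**Figure D4:**
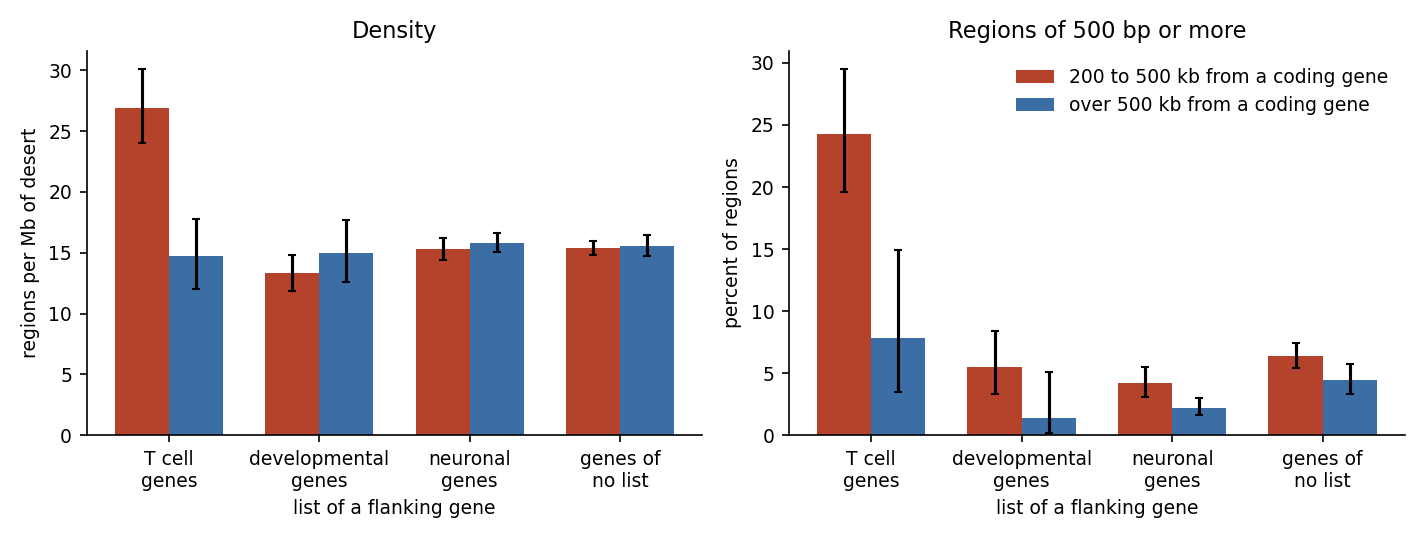
Regions per Mb of desert (left) and percent of regions of 500 bp or more (right), 200 to 500 kb (red) and over 500 kb (blue) from the nearest coding gene, for stretches beside genes of each list; lines are 95% exact intervals. The red bar of the T cell list is the highest in both panels, at 26.9 per Mb and 24.3%.

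Values were uneven among T cell genes. The stretch beside Btg1, which encodes an antiproliferative protein that helps to keep T cells at rest, was the most crowded T cell stretch over 100 kb long, with 14 regions in 0.171 Mb (81.6 per Mb, 44.6 to 137). Of these 14, 7 were wide and lay 209, 216, 242, 245, 260, 278 and 343 kb from the gene body. The region at 242 kb (chr10:96373375-96374837) was 1463 bp wide, the fifth widest in any desert. The stretch between Satb1 and Kcnh8, a potassium channel gene, held 26 regions in 0.369 Mb (70.4 per Mb, 46 to 103), 8 of them wide. Those 8 lay 229 to 502 kb from Satb1, and 6 regions at chr17:52149080-52178320, the region at Gm19585 among them, formed a chain of 29.2 kb. On the other side of Satb1, towards Tbc1d5, 7 regions in 0.155 Mb included no wide one.

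Id2 encodes an inhibitor of E protein transcription factors, and the desert between it and Rnf144a held 23 regions in 0.811 Mb (28.4 per Mb, 18 to 42.6). Of these, 10 were wide, more than in any other T cell stretch. They lay in several places, at 204 to 335 kb (4 regions), 606, 768 and 862 kb, and 962 to 975 kb (3 regions) from Id2. Sox4, a factor of lymphocyte development, had 18 regions in 0.397 Mb (45.3 per Mb, 26.8 to 71.6) with 5 wide ones at 348 to 531 kb. Foxo1, which encodes a factor for homing and survival of naive T cells, had 10 regions in 0.232 Mb (43.1 per Mb, 20.7 to 79.3) with 4 wide ones at 222, 268, 298 and 320 kb. Foxp1, whose product helps naive T cells stay quiescent, had 7 regions in 0.183 Mb, 3 of them wide. Bcl2l11, which encodes the apoptosis inducer BIM, had 4 regions in 0.0287 Mb, 3 of them wide and at 205, 205 and 219 kb; so short a stretch gives a density interval of 38.0 to 357 per Mb.

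Longer deserts beside T cell genes were mixed. On both sides of Myc regions were dense, with 22 in 0.664 Mb towards A1bg (33.1 per Mb, 20.8 to 50.2) and 31 in 1.39 Mb towards Gsdmc (22.4 per Mb, 15.2 to 31.8). Wide regions lay at 438, 444, 543 and 562 kb on the A1bg side, and at 255, 708 and 834 kb on the Gsdmc side, the last of them 1127 bp wide. Tcf4, which encodes an E protein, had 17 regions in 0.514 Mb (33.1 per Mb, 19.3 to 52.9) with 5 wide ones, and Tox, a factor of T cell development, had 21 in 0.750 Mb (28.0 per Mb, 17.3 to 42.8) with 4. Ptprc, the gene of the phosphatase CD45, had 22 in 0.702 Mb (31.3 per Mb, 19.6 to 47.4) but 1 wide region. The desert between Celf2 and Gata3 held 27 regions in 2.06 Mb, 13.1 per Mb (8.63 to 19.1), and its 4 wide regions lay 263, 279, 363 and 892 kb from Gata3. Zeb2, which encodes a zinc finger repressor of transcription, flanked the T cell stretch with the most regions, 60 in 3.30 Mb (18.2 per Mb, 13.9 to 23.4). Of its 8 wide regions, 7 lay 3198 to 3356 kb from Zeb2, at the end towards Acvr2a, an activin receptor gene.

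Some T cell genes had few or no desert regions. The stretches beside Icos, a costimulatory receptor gene (0.238 Mb), Ikzf2, Ifng and Bcl6 held 0; the last 3 stretches are under 25 kb long, so 0 says little there. Maf, a factor of effector helper T cells, had 2 regions in 0.398 Mb (5.02 per Mb, 0.608 to 18.1), and Ets1, a factor active in resting T cells, had 15 in 1.33 Mb (11.3 per Mb, 6.32 to 18.6), of which 3 were wide and lay 242, 303 and 322 kb away. In all, 21 of the 34 T cell stretches (61.8%) held a wide region, against 179 of all 728 (24.6%), and T cell genes flanked 10 of the 22 stretches with 4 or more.

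**Figure D5:**
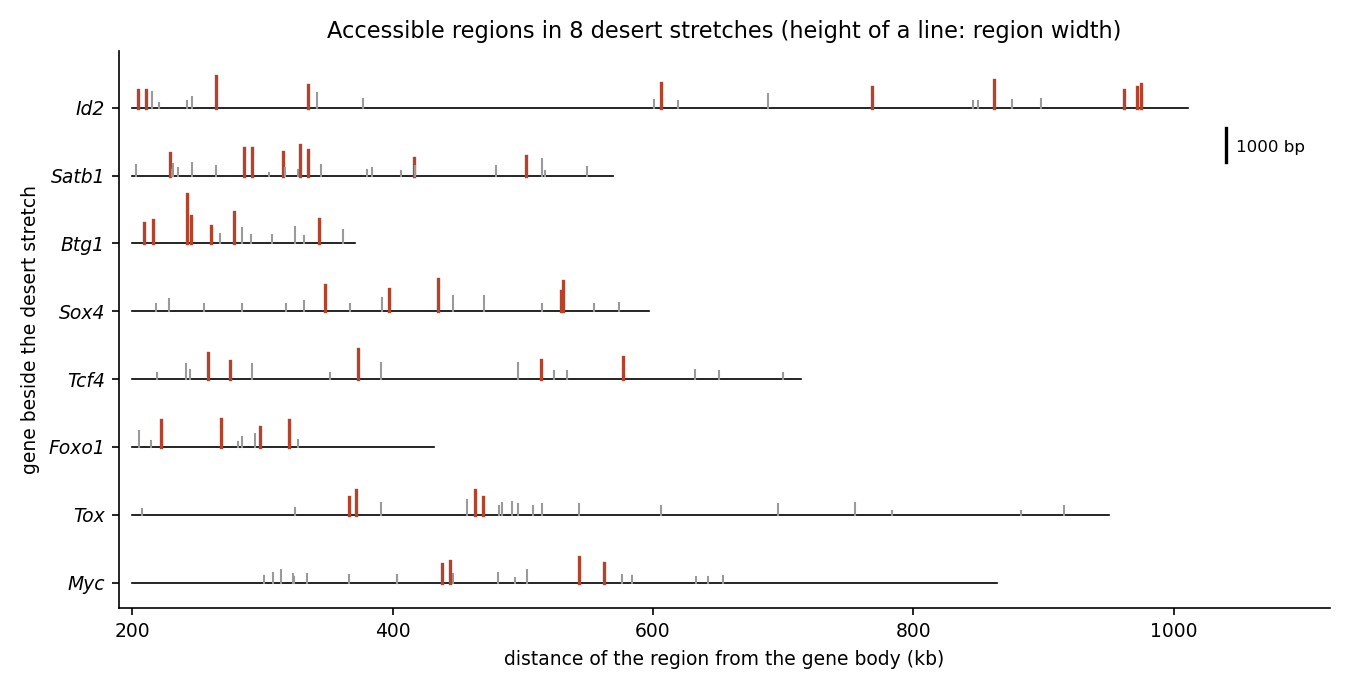
Regions of 8 desert stretches by distance from the body of the named gene in kb; each vertical line is a region, its height the region's width, and red marks 500 bp or more. The stretches are those of the T cell list with 4 or more wide regions with Zeb2 and Gata3 left out for their length, chosen after their values were seen; Id2 has 10 red lines spread from 204 to 975 kb and Btg1 has 7 within 209 to 343 kb.

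Developmental and neuronal genes gave another picture. The developmental stretch with the most regions, between Nr2f1, which encodes a nuclear receptor of brain development, and Arrdc3, held 47 in 2.28 Mb (20.6 per Mb, 15.1 to 27.4), and none was wide. Bcl11a to Fancl held 27 regions in 1.81 Mb and none was wide; Pou3f2 to Mms22l held 27 in 1.61 Mb, and 2 were wide. The neuronal list was led by the protocadherin deserts described above. The lists share 5 stretches: Satb1 to Kcnh8, Ets1 to Kirrel3, Kcnj3 to Nr4a2 and Erbb4 to Ikzf2 count for both T cell and neuronal genes, and Sall3 to Galr1 for both developmental and neuronal genes. Satb1 to Kcnh8, described above, is thus also the neuronal stretch with 8 wide regions. The next in these 2 lists by wide regions lay between Sall3, a developmental factor gene, and Galr1, a galanin receptor gene, with 26 regions in 1.01 Mb (25.9 per Mb), of which 6 were wide, the widest 1124 bp.

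Antigen receptor loci lie partly inside what the rule counts as desert, because their V, D and J segments are not annotated as protein-coding genes. They held 175 of the 7148 regions (2.45%), at 28.1 per Mb (24.1 to 32.6), against 15.4 per Mb (15.1 to 15.8) in the remaining desert sequence. The densest stretch of 500 kb or more, between Gm36448 and Dad1 (chr14:52741357-54035484), lies in the locus of the T cell receptor alpha chain. It held 57 regions in 1.29 Mb, 44.0 per Mb (33.4 to 57.1), of which 11 were wide and 78.9% had a neighbour within 10 kb. A desert region overlapped 23 of its 108 V segments over 200 kb from a coding gene (21.3%, 14.0 to 30.2%), and 2 chains of 8 regions lay in it. The second densest, between Adam6a and Zfp386 (chr12:113746415-115847713), lies in the immunoglobulin heavy chain locus, which B cells rearrange. It held 73 regions in 2.10 Mb, 34.7 per Mb (27.2 to 43.7), more than any other stretch, with 15 wide, and 26 of its 99 V segments at that distance (26.3%, 17.9 to 36.1%) were overlapped. The kappa light chain locus held 45 desert regions, none wide, and 3 of its 91 V segments at that distance (3.30%, 0.685 to 9.33%) were overlapped. The B cell markers Cd79a, Ms4a1 and Pax5 had no region at a gene end in the same list. The part of B cells in the heavy chain counts was not tested.

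Chains and single wide regions stood partly at chromosome starts. The chain with the most regions was 19 at the first assembled bases of chromosome 9 (chr9:3000003-3038307), with widths of 284 to 2576 bp and a median of 767 bp; it includes the widest desert region. The next were 10 regions at chr16:3231587-3268612 and 9 at chr3:3000335-3039748, also in the first megabase of assembled sequence. Another chain of 9 lay between Ube3a, an imprinted ubiquitin ligase gene, and Snrpn, an imprinted splicing factor gene, at chr7:59751468-59779147. A chain of 6 lay in the desert between Trib2 and Lpin1, which also holds the Gm36372 promoter; this 0.319 Mb stretch held 13 regions, 6 of them wide. The 4 widest regions after the one on chromosome 9 were isolated or in short runs: 1641 bp at chr4:71290901-71292541, 463 kb from Gm11232, 1613 bp at chr7:58398371-58399983, 256 kb from Atp10a, 1604 bp at chr3:8245008-8246611, 263 kb from Stmn2, and the region beside Btg1. Whether reads from repeated sequence contribute to the regions at chromosome starts was not tested.

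A minority of desert regions lay on annotated non-coding genes, and for lncRNA genes the share was near their share of desert sequence. Of the 7148, 861 (12%, 11.3 to 12.8%) overlapped a non-coding gene, pseudogene or receptor segment by at least 1 bp, against 21.4% (20.4 to 22.4%) of those 50 to 200 kb from a coding gene. The share of sequence on such genes at 50 to 200 kb is not given here. The 861 included 737 regions on 400 lncRNA genes (10.3% of desert regions), 68 on pseudogenes and 58 on receptor segments. LncRNA bodies made up 9.41% of desert sequence and held 17.1 regions per Mb (15.9 to 18.4), against 15.4 (15.1 to 15.8) outside them. Of the regions in lncRNA genes, 9.36% were wide (7.36 to 11.7%), against 4.66% (4.16 to 5.21%) of those outside. No desert region overlapped any of the 44 microRNA hairpins over 200 kb from a coding gene, and 9 hairpins had a region within 10 kb. The nearest were Mirlet7c-1, at 46 bp, Mir7094-1, at 115 bp, and Mir99a, at 457 bp, of which Mirlet7c-1 and Mir99a belong to the same cluster on chromosome 16. The median distance of the 44 to a desert region was 23.9 kb. Regions covered 0.405% of desert base pairs, so 0 overlaps among 44 short hairpins says little. The share of all desert positions within 10 kb of a region was not computed. Many of the 44 hairpins belong to the Mir344 cluster on chromosome 7, so they are not independent.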

How the data were processed

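The data are 1 deposited list of accessible regions with sequence name, start and end, and no other value; per the labels it is joint for all 4 libraries (2 DDX55 KO, 2 WT). Its positions (a unit of other kind, base pairs from 0 in the BED form deposited by the authors) were turned to count from 1. Per the submitters' processing notes the build is mm10 and the tools include fastp 0.12.4, SAMtools 1.15.1, MACS3 3.0.0b1 and Bowtie2; their roles, the peak threshold, the treatment of duplicates, of the transposase offset and of repeated sequence, and the joining of libraries are not stated in the labels or headers read here. Depth per library is unknown, and peak calling depends on it.

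Gene bodies came from RefSeq (GRCm38.p6). In that table each chromosome's own sequence is its longest run of rows; 333 autosomal genes (107 coding) in shorter runs, whose positions count along other scaffolds, were left out. Sequence length ran from the first to the last region of a chromosome, less a 200 kb margin around every coding gene. Overlap meant at least 1 bp. Shares have exact binomial (Clopper-Pearson), densities exact Poisson and medians order-statistic intervals, at 95%; no test was run, since no replicate values exist. A stretch belongs to a list where the nearest coding gene on either side is a member; of 441 entries in 3 lists, 431 matched an autosomal coding gene. The members and lists were chosen with earlier results of these data known. Named were the 10 stretches with most regions, the 5 densest of 500 kb or more, the 5 longest and the 5 longest empty, the 3 with most regions per list, the 5 widest and 5 farthest regions, the 3 longest chains, and open lncRNA promoters; the remaining empty stretches are given as a count, and any other stretch named was picked once its values were known. Some items that these rules select are not reported here. The code was tested on simulated regions and genes. The alternatives were other distances, gene sets, region widths, joining, spans and chromosome starts. Python 3.11.15, numpy 2.4.6, pandas 2.3.3, scipy 1.17.1 and matplotlib 3.10.9 were used.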

Additional observations from a re-analysis of the deposited data

Results flagged for a closer look

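The description above covers the autosomes, and regions also lay in deserts of the sex chromosomes. On chromosome X, 40 of 878 regions lay over 200 kb from every coding gene, in 35.2 Mb of such sequence (1.14 per Mb, exact Poisson interval 0.813 to 1.55), with a median width of 232 bp. On chromosome Y, 12 of 54 regions did so, in 26.0 Mb (0.462 per Mb, 0.238 to 0.806), with a median width of 360 bp. Density in the other sequence of X and Y was not computed, so low values are not shown to be particular to their deserts. The sexes of the mice are not in the labels, and the part of copy number in these values was not tested.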

How the results depend on the processing

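No paired analysis was possible because the list holds no value per library; for the same reason no library could be left out, and knockout was not set against wild type. Of 86 alternative values, 51 stayed inside the main interval, or within 1.5 times of a main count. The ratio of desert to other density was below 1 under all 11 alternatives that give it, from 0.434 to 0.575. Below, values are given in the order share of autosomal regions, density, ratio, median width, share on a non-coding gene and share with a neighbour, naming those that left the interval. At 100 kb they were a share of 16.5%, a ratio of 0.524, a width of 228 bp, 14.8% on non-coding genes and 31.5% with a neighbour, and T cell deserts held 27.2 regions per Mb. At 300 kb they were 8.42%, a ratio of 0.559 and 10.6% on non-coding genes. At 500 kb, 3161 regions remained in the set, with a share of 4.99%, a ratio of 0.575, 218 bp, 8.89% and 26.7%. Without predicted coding genes the share was 12.3% and 31.2% had a neighbour. With receptor segments as genes the share was 11.0%. Against any annotated gene, 851 regions counted, with 1.34%, 14.8 per Mb, a ratio of 0.557, 218 bp and 22.4% with a neighbour; none can lie on a non-coding gene there. Among regions of 200 bp or more, 4568 counted, with 9.27%, 9.97 per Mb, a ratio of 0.434, 269 bp, 12.8% and 22.8%. With gaps under 1 kb joined the share was 11.8%, density 15.2, ratio 0.569 and 26.4% had a neighbour. Measuring from region middles or leaving out the first 5 Mb of chromosomes moved none of these, and the span from first to last gene, which bears on density and ratio alone, moved neither. Alternatives added after seeing the data left the share of wide regions beside T cell genes at 18.8 to 21.3% without the stretches beside Id2, Satb1, Zeb2 or Btg1 in turn. Elsewhere that share was 3.96% without receptor loci and 3.85% without stretches at chromosome starts. Depth is unknown, so how many regions the list misses cannot be said; a stretch without a region is a stretch where none was listed.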

Other observations

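The 5 deserts of 500 kb or more with the lowest density were picked once their values were known. The stretch between Fgf9, a growth factor gene, and 1700129C05Rik held 2 regions in 0.620 Mb (3.22 per Mb, 0.391 to 11.6). Adamts16 to Irx1, a homeobox gene, held 3 in 0.716 Mb (4.19 per Mb), and Tbc1d2b to Zic1, a zinc finger gene of brain development, held 3 in 0.687 Mb (4.37 per Mb). Dnaaf6 to Khdrbs2 held 2 in 0.548 Mb and Arpp21 to Pdcd6ip held 5 in 1.02 Mb. None of these regions was 500 bp or wider.

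Chromosome starts held 109 desert regions within position 5 Mb, or 1.52% of all. Their median width was 292 bp, and they included 31 of the 368 wide desert regions. The stretch that runs from the first region of chromosome 9 to Alkbh8, a tRNA modification gene, held 21 regions in 0.135 Mb (155 per Mb), of which 15 were wide. That from the first region of chromosome 16 to Olfr161, an olfactory receptor gene, held 25 in 0.278 Mb (89.9 per Mb), of which 9 were wide.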
